A study of Homo sapiens with 7 samples.

Results

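The clustered replication-dependent histone genes were followed in Huh-7 cells depleted of the RNA-binding protein IGF2BP1. They were taken as the protein-coding rows of the deposited table whose symbol starts with HIST1, HIST2, HIST3 or HIST4, which gave 72 genes of 58174 listed (19799 of them protein-coding). The class was read from the symbol, with 6 genes of the linker histone H1, 17 of H2A, 18 of H2B, 16 of H3 and 15 of H4. Of the 72 genes, 60 averaged 1 FPKM or more across the 7 libraries and were tested. The other 12 had means of at most 0.560 FPKM, and 2 of them (HIST2H3PS2 and HIST1H3D.1) were listed at 0 in each library. HIST1H3D.1 is the row matched to the current symbol H3C4, and another row is listed as HIST1H3D. Of the 12, 7 overlap another gene on the same strand in GENCODE v44. How reads in such overlaps were counted is not stated, so low values there do not show that the mRNA was absent.

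Huh-7 cells come from a human liver cancer (hepatocellular carcinoma). At 72 h after transfection, total RNA was sequenced from 3 libraries of cells with control siRNA (siC) and from 4 libraries of cells with an siRNA pool against IGF2BP1 (siIGF2BP1, labelled siImp1). The labels name no other treatment, and all libraries come from 1 cell line. Nothing in the labels says that the replicates were separate cultures, so p-values measure the spread between these libraries, which may be technical. Ribosomal RNA was depleted and no poly(A) selection was made, so histone mRNAs without a poly(A) tail were kept in the libraries. Libraries held from 12826550 to 33212205 reads on genes. IGF2BP1 itself was at 81.9, 80.4 and 84.4 FPKM in siC and at 15.6, 15.7, 16.6 and 15.3 FPKM in siIGF2BP1, or 19.2% of siC. The hepatocyte genes ALB and AFP were at 1814 and 3151 FPKM on average in siC. Of 7 markers of fibroblasts, leukocytes and endothelium, 3 were tested, and the sum of the 7 ran from 4.10 to 5.80 FPKM in siC and from 6.70 to 7.66 FPKM in siIGF2BP1. The leukocyte marker PTPRC had means of 0.0025 and 0.0071 FPKM, and the mean of CD14 was 0.892 FPKM in the controls (SD 0.396, n = 3) and 2.25 FPKM in the depleted cells (SD 0.283, n = 4), which did not pass the threshold used here (log2 change 1.33, limma adjusted p = 0.0338) and did pass it without siC replicate 3 (0.96, limma adjusted p = 0.00984). The part of these markers in the histone results was not tested.

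Replication-dependent histone genes supply the core histones H2A, H2B, H3 and H4 and the linker histone H1 when DNA is copied in S phase. They stand in clusters, most of them lack introns, and their mRNAs end in a conserved stem-loop instead of a poly(A) tail. The stem-loop is bound by SLBP and cut by a complex that contains the U7 snRNP, and the factor NPAT drives transcription of the clusters in S phase. A few of these genes also make polyadenylated mRNA, for example in cells that no longer divide.

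The stem-loop was searched in the GENCODE v44 transcripts of the members (stem arms of 6 bases, loop of 4 bases, within 150 bases after the stop codon) and was found in 66 of the 72. The sequences are shown because they are the signal that the members share and the rule did not use. Each is given 5′ to 3′ as DNA with 5 flanking bases, or fewer where the transcript ends, and the capitals mark the stem-loop.
HIST1H1A: ccaacGGCTCTTTTAAGAGCCaccta
HIST1H1D: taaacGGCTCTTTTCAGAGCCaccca
HIST1H2AC: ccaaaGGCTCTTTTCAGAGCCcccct
HIST1H2BC: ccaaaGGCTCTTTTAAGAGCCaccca
HIST3H2BB: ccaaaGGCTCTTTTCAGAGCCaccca
HIST2H2AC: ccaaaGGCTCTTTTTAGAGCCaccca
HIST1H3B: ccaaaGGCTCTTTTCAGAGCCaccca
HIST1H4D: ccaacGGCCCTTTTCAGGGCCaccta
HIST1H4A: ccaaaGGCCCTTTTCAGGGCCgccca
The loop was TTTC in 51 members, TTTA in 10 and TTTT in 5. The stem arm began with GGCTC in 52 members, all of the classes H1, H2A, H2B and H3, and with GGCCC in 14 members, all of the class H4. No stem-loop was found by this search for 6 members, HIST1H2AK, HIST1H2AG, HIST1H2BI, HIST1H3D, HIST1H3E and HIST1H4L, which says only that the letters were not in the transcript model used.

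Promoter windows of 300 bases (250 before and 50 after the RefSeq start site, GRCh38.p14) were available for 66 members and for 35116 genes in all. The letters of the TATA box (TATAAA, both strands, anywhere in the window) were in 66.7% of the members' windows against 11.5% of all windows, and CCAAT (both strands) in 84.8% against 34.6%. CCAAT was present in all 6 H1, 16 H2A, 18 H2B and 13 H3 windows but in 3 of 13 H4 windows. The octamer ATTTGCAT (both strands) was in 14 of 18 H2B and 11 of 16 H2A windows, in 1 of 13 H3 windows and in none of the H1 and H4 windows, against 1.77% of all windows. The H3 window with the octamer, listed for HIST1H3D.1, is the same stretch as the window of HIST1H2AD and so counts in both classes. Windows of H2A and H2B genes that start close together on opposite strands overlap, so the same octamer or TATAAA can count for both. For example, the only TATAAA match in the window of HIST1H2BC lies on the other strand and is that of HIST1H2AC. The H1 box AAACACA (both strands) was in 6 of 6 H1 windows and in 5.64% of all windows. The 250 bases before the start site are shown for 3 members that represent these arrangements, with the motifs in capitals. The window of HIST1H2AC also holds the start site of HIST1H2BC on the other strand, and both genes were lower after depletion of IGF2BP1.
HIST1H2AC, chr6:26123922-26124171, plus strand: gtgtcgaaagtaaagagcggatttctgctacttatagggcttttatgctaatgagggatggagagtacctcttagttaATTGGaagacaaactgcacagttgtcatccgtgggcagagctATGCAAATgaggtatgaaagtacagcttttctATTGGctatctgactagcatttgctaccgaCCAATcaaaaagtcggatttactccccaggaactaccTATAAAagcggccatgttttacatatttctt
HIST1H1D, chr6:26234988-26235237, minus strand: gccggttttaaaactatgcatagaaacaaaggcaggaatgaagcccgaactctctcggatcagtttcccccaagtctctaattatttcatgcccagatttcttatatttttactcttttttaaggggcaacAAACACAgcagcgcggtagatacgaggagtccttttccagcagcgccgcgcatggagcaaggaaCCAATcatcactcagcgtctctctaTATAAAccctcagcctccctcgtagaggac
HIST1H4D, chr6:26189113-26189362, minus strand: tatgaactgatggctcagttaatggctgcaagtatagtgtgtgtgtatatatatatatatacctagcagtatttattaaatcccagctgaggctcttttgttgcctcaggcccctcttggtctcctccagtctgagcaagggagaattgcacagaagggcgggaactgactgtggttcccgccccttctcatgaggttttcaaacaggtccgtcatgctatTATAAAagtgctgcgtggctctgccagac
A match is a run of letters and was not tested as a binding site.

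One control library stood apart in the abundance of histone mRNA, and this touches each result below. Summed over the 72 genes, the histone genes reached 25384, 24932 and 38242 FPKM in the 3 siC libraries and 18543, 17201, 18027 and 19145 FPKM in siIGF2BP1 replicates 1 to 4. The siC libraries 1 and 2 lay close together, siC replicate 3 was 1.52 times their mean, and all 4 siIGF2BP1 libraries lay below each siC library. As a share of all reads on genes, the histone genes took 1.48%, 1.45% and 2.27% in siC and from 1.07% to 1.16% in siIGF2BP1. The mean sum after depletion of IGF2BP1 was 61.8% of siC, and 72.5% of the mean of siC replicates 1 and 2.

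Every class was lower in sum. The H1 sum was 3734, 3691 and 4073 FPKM in siC and 2444, 2207, 2385 and 2556 FPKM in siIGF2BP1. It was the class in which siC replicate 3 lay nearest to the other controls (1.10 times their mean), and the depleted libraries stood at 62.6% of siC with the library and at 64.6% without it. The H2A sum was 6146, 6039 and 9105 FPKM in siC and from 4262 to 4730 FPKM in siIGF2BP1. The H2B sum, the lowest of the core classes, was 2170, 2130 and 3622 FPKM in siC and from 1511 to 1646 FPKM in siIGF2BP1. The H3 sum was 7287, 7152 and 11809 FPKM in siC and from 5102 to 5613 FPKM in siIGF2BP1. The H4 sum was 6047, 5920 and 9633 FPKM in siC and from 4097 to 4601 FPKM in siIGF2BP1. With all libraries the sums of H2A, H2B, H3 and H4 were 63.5%, 59.0%, 61.4% and 61.1% of siC. Without siC replicate 3 they were 73.9%, 72.4%, 74.4% and 73.5%. In this library the sums were 1.49, 1.68, 1.64 and 1.61 times the mean of the other siC libraries.

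**Figure D1:**
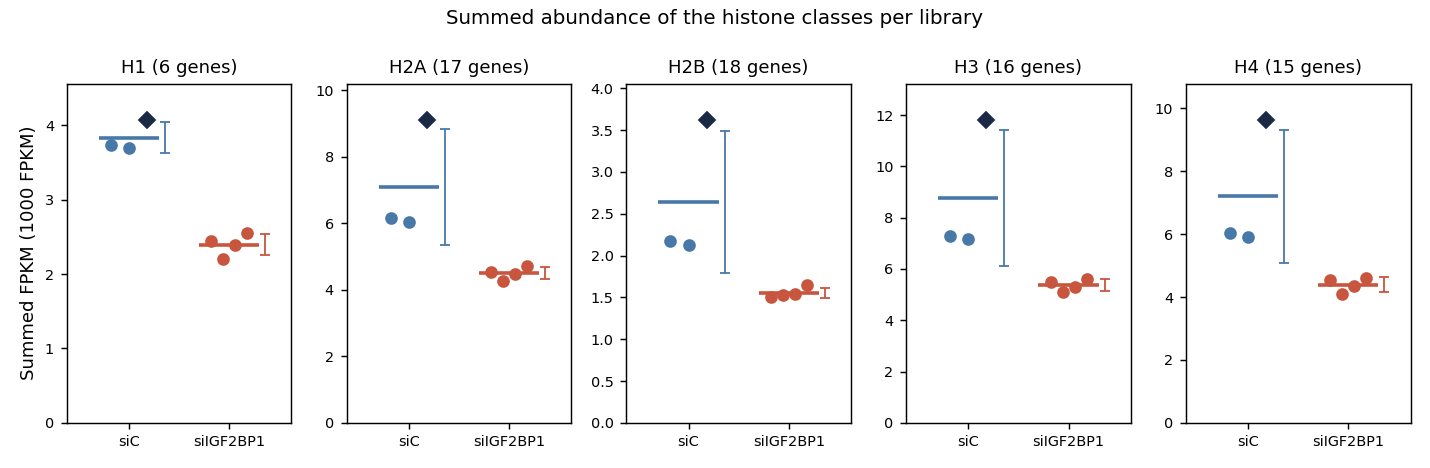
Summed FPKM (axis in units of 1000 FPKM) of each histone class in each library, with the 3 siC libraries in blue (siC replicate 3 as a dark diamond) and the 4 siIGF2BP1 libraries in red; lines are group means and bars are SDs. All siIGF2BP1 libraries lie below all siC libraries in each class, and siC replicate 3 stands above the other siC libraries in H2A, H2B, H3 and H4 (1.49 to 1.68 times their mean) more than in H1 (1.10 times).

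The linker histone was not in a fixed ratio to the core histones. The H1 sum made up 17.2% and 17.4% of the core sum in siC replicates 1 and 2 and 11.9% in siC replicate 3. It made up 15.2%, 14.7%, 15.3% and 15.4% in the siIGF2BP1 libraries, below the first pair of controls and above the third. Means were 15.5 ± 3.11% (SD, n = 3) in siC and 15.1 ± 0.297% (SD, n = 4) in siIGF2BP1, so the difference was smaller than the spread between the siC libraries.

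Among single genes, 8 of the 60 tested were lower in siIGF2BP1 and 0 were higher at the threshold (limma, adjusted p of at most 0.01 over 14839 genes). Over all genes tested, 2.28% were called lower and 1.65% higher. Before adjustment, 49 of the 60 were lower and 0 higher at p under 0.05, against 14.8% and 11% of all genes tested. The log2 change was below 0 for 59 of 60, with a median of -0.69 against -0.017 over all genes tested. Each siIGF2BP1 library lay below each siC library for 53 of the 60, against 15.1% of all genes tested, and above each for 0 of 60, against 11.9%. The number of calls rested on siC replicate 3. Without it 39 of the 60 were lower and 0 higher, against 6.67% and 3.59% of all genes, and the median was -0.45 against -0.031. All 8 genes called with the 7 libraries were also called without siC replicate 3. When any other single library was left out, 2 genes passed, HIST1H1A and HIST1H1D. With quantile normalization 4 of the 8 passed, and the values of abundant members moved towards 0. HIST1H1E and HIST1H1B then stood at -0.31 and -0.35 (limma adjusted p = 0.0499 and 0.0183). HIST1H1C and HIST1H3C stood at -0.029 and -0.031 (limma adjusted p = 0.823 and 0.877). The members were not independent of each other in the libraries, and the counts were not tested against other lists.

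**Figure D2:**
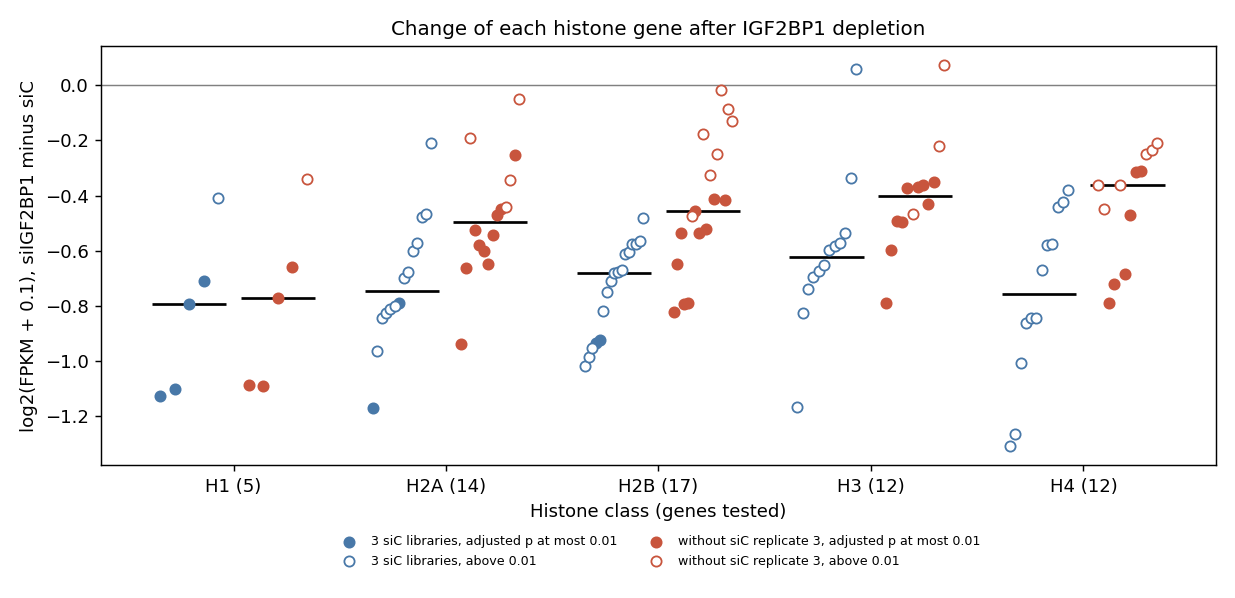
Log2 change of log2(FPKM + 0.1), siIGF2BP1 minus siC, of the 60 histone genes tested, by class, with all libraries (blue) and without siC replicate 3 (red); filled points have an adjusted p of at most 0.01 and black lines are class medians. The median of H1 is similar in both fits (-0.79 and -0.77), while those of the core classes move from between -0.76 and -0.62 to between -0.50 and -0.36.

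The linker histone genes gave the calls with the least spread. Of the 5 tested, 4 were lower, and the class median was -0.79 (-0.77 without siC replicate 3). HIST1H1A (ENSG00000124610, H1-1 in current nomenclature, GRCh38 chromosome 6, 26017032 to 26017787, minus strand) was at 382, 387 and 392 FPKM in siC and at 191, 172, 169 and 191 FPKM in siIGF2BP1. The groups were far apart relative to their spread, and the abundance fell to 46.7% of siC (log2 change -1.10, SE 0.0748, limma adjusted p = 0.000536). HIST1H1D (ENSG00000124575, H1-3, chromosome 6, 26234212 to 26234987, minus strand) was at 130.1, 126 and 139 FPKM in siC and at 62.3, 53.8, 59.3 and 65.9 FPKM in siIGF2BP1. It fell to 45.9% of siC (log2 change -1.13, SE 0.0845, limma adjusted p = 0.000697). Both passed the threshold in 7 of 7 fits that each left out 1 library.

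The more abundant linker histones changed less. HIST1H1E (ENSG00000168298, H1-4, chromosome 6, 26156329 to 26157115, plus strand) was at 959, 923 and 983 FPKM in siC and at 555, 509, 551 and 591 FPKM in siIGF2BP1 (log2 change -0.79, SE 0.0852, limma adjusted p = 0.00245). HIST1H1B (ENSG00000184357, H1-5, chromosome 6, 27866792 to 27867588, minus strand) was at 1166, 1144 and 1284 FPKM in siC and at 749.7, 668, 735 and 778 FPKM in siIGF2BP1 (log2 change -0.71, SE 0.0954, limma adjusted p = 0.00543). Neither group overlapped the other for these genes. HIST1H1C (H1-2), the linker histone that is also made as polyadenylated mRNA, was the most abundant of the class and had the smallest log2 change in it. Its abundance was 1095, 1112 and 1275 FPKM in siC and 885, 803, 871 and 930.1 FPKM in siIGF2BP1, or 75.2% of siC. The groups did not overlap, but the change did not pass the threshold with all libraries (log2 change -0.41, limma adjusted p = 0.0433) or without siC replicate 3 (-0.34, limma adjusted p = 0.0146). Without HIST1H1C, the H1 sum stood at 57.1% of siC. HIST1H1T, the testis linker histone, had at most 7 reads in a library and was not tested.

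In the H2A class 2 of 14 genes were lower with all libraries and 10 of 14 without siC replicate 3, with medians of -0.75 and -0.50. HIST1H2AC (ENSG00000180573, H2AC6, chromosome 6, 26124145 to 26139116, plus strand) was at 217, 219 and 293 FPKM in siC and at 141, 136, 140.1 and 138 FPKM in siIGF2BP1. It fell to 57.2% of siC (log2 change -0.79, SE 0.115, limma adjusted p = 0.00702). HIST1H2AK (ENSG00000275221, H2AC15, chromosome 6, 27837880 to 27838375, minus strand) was at 102, 90.1 and 156 FPKM in siC and at 53.5, 46.4, 52.4 and 47.6 FPKM in siIGF2BP1. It fell to 43.1% of siC (log2 change -1.17, SE 0.182, limma adjusted p = 0.00897) and to 52.1% of the mean of siC replicates 1 and 2. For both genes siC replicate 3 was the highest library and the depleted libraries lay below all controls.

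The most abundant H2A genes did not pass with all libraries. HIST1H2AB was at 663, 661 and 1018 FPKM in siC and from 446 to 511 FPKM in siIGF2BP1, and its log2 change was -0.68 (limma adjusted p = 0.0436). Without siC replicate 3 it was called (log2 change -0.47, limma adjusted p = 0.00527). HIST2H2AA3 and HIST2H2AA4 share from 99.8% to 100% of their 50-base windows, so reads cannot be told apart between them. Their siC means were 1177 and 1140 FPKM (SD 191 and 193, n = 3) and their siIGF2BP1 means 786 and 813 FPKM (SD 60.5 and 57.3, n = 4), without passing the threshold in either fit. HIST2H2AB differed least of the H2A class. It was at 179, 168 and 241 FPKM in siC and at 177, 163, 161 and 171 FPKM in siIGF2BP1, so the groups overlapped, and the log2 change was -0.21 (limma adjusted p = 0.374) or -0.049 without siC replicate 3. The log2 change of HIST3H2A was -0.80 (limma adjusted p = 0.0226) with all libraries, and without siC replicate 3 it was called at -0.60 (limma adjusted p = 0.00564).

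In the H2B class 2 of 17 genes were lower with all libraries and 10 of 17 without siC replicate 3 (medians -0.68 and -0.46). HIST1H2BC (ENSG00000180596, H2BC4, chromosome 6, 26086317 to 26123926, minus strand) was at 337, 323 and 435 FPKM in siC and at 199, 173, 189 and 203 FPKM in siIGF2BP1. It fell to 52.3% of siC (log2 change -0.92, SE 0.122, limma adjusted p = 0.00505). Its gene model runs over other histone genes on both strands, and strand-aware counting is not stated, so its value is uncertain to that extent. HIST3H2BB (ENSG00000196890, H2BC26, chromosome 1, 228458103 to 228463104, plus strand) was at 16.7, 17.0 and 22.6 FPKM in siC and at 9.80, 9.63, 9.86 and 9.35 FPKM in siIGF2BP1. It fell to 51.6% of siC (log2 change -0.93, SE 0.112, limma adjusted p = 0.00348) and was the only gene outside the HIST1 cluster called with all libraries.

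Other H2B genes separated less clearly. HIST1H2BB was at 504, 487 and 713 FPKM in siC and from 304 to 370.4 FPKM in siIGF2BP1, and it was called without siC replicate 3 (log2 change -0.54, limma adjusted p = 0.00624). HIST1H2BK was at 300.1, 295 and 616 FPKM in siC and at 238, 298, 275 and 281 FPKM in siIGF2BP1. Its groups overlapped, and the log2 change was -0.48 with all libraries and -0.13 without siC replicate 3 (limma adjusted p = 0.306 and 0.341). HIST2H2BE was at 16.4, 16.4 and 52.9 FPKM in siC and at 12.8, 22.6, 13.9 and 17.3 FPKM in siIGF2BP1, and its log2 change of -0.58 moved to -0.015 without siC replicate 3 (limma adjusted p = 0.470 and 0.968).

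In the H3 class 0 of 12 genes passed the threshold with all libraries (10 of 12 were lower at an unadjusted p under 0.05), and 9 of 12 were lower without siC replicate 3 (medians -0.62 and -0.40). HIST1H3B was the most abundant member of all. It was at 2168, 2141 and 4020 FPKM in siC and at 1666, 1601, 1642 and 1754 FPKM in siIGF2BP1. The depleted libraries varied little and lay below all controls, while siC replicate 3 stood at 1.87 times the other controls. With this library the log2 change of HIST1H3B stood at -0.67 (SE 0.232) with a limma adjusted p = 0.118, and without it at -0.37 (SE 0.0581) with a limma adjusted p = 0.00706. HIST1H3C was at 1717, 1687 and 2283 FPKM in siC and from 1178 to 1337 FPKM in siIGF2BP1, and HIST1H3F at 721, 722 and 1206 FPKM and from 483 to 544 FPKM. Both were called without siC replicate 3 (log2 change -0.43 and -0.49, limma adjusted p = 0.00649 and 0.00260). HIST1H3E was low throughout, at 7.33, 7.33 and 9.41 FPKM in siC and from 6.03 to 6.57 FPKM in siIGF2BP1, and passed in neither fit.

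The single member with a log2 change above 0 was listed as HIST1H3D (ENSG00000282988, chromosome 6, 26195595 to 26199293, minus strand), a locus whose model spans H2AC7 and H3C4 on the same strand. It was at 1.71, 1.39 and 1.60 FPKM in siC and at 1.25, 1.40, 1.89 and 2.12 FPKM in siIGF2BP1, so the groups overlapped (log2 change 0.058, limma adjusted p = 0.904). Its sign turned under quantile normalization and without siC replicate 2 or siIGF2BP1 replicate 3 or 4. The member HIST1H2AD, inside this model, had a mean of 0.350 FPKM and was not tested.

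In the H4 class 0 of 12 genes passed with all libraries (10 were lower at an unadjusted p under 0.05), and 6 of 12 were lower without siC replicate 3 (medians -0.76 and -0.36). All 12 had siIGF2BP1 libraries below all siC libraries. HIST1H4D was at 1025, 1042 and 1621 FPKM in siC and at 653, 573, 566 and 600.3 FPKM in siIGF2BP1. With all libraries its log2 change reached -1.01 (SE 0.175) at a limma adjusted p = 0.0134, and without siC replicate 3 it was called at -0.79 (SE 0.0677) with a limma adjusted p = 0.00111. HIST1H4K and HIST1H4J share from 92.1% to 92.6% of their windows with each other. They stood at 73.3% and 72.5% of siC, and at 85.1% and 84.4% of the mean of siC replicates 1 and 2, and passed in neither fit. HIST4H4 on chromosome 12, the single gene outside the 3 larger clusters, was at 47.8, 45.5 and 66.2 FPKM in siC and at 41.0, 35.9, 41.1 and 43.6 FPKM in siIGF2BP1 (log2 change -0.38, limma adjusted p = 0.145).

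The lowest log2 changes of all members came from genes that siC replicate 3 set apart. HIST1H4H was at 7.01, 7.94 and 54.2 FPKM in siC and at 4.62, 6.56, 5.83 and 6.34 FPKM in siIGF2BP1. HIST1H4A was at 119, 117 and 646 FPKM in siC and at 79.1, 96.7, 85.1 and 86.2 FPKM in siIGF2BP1. In both the third control was several times the others, and the remaining libraries lay close together. HIST1H4H moved from a log2 change of -1.31 to -0.36 when that library was left out (limma adjusted p = 0.280 and 0.129). HIST1H4A moved from -1.26 to -0.45 (limma adjusted p = 0.223 and 0.0105).

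The excess in siC replicate 3 was above 1 for all 60 genes tested but uneven among them. The ratio to the mean of siC replicates 1 and 2 had a median of 1.51 and ran from 1.02 (HIST1H1A) to 7.25 (HIST1H4H), against a median of 0.97 over all genes tested. It was over 1.5 for 0 of 5 H1, 8 of 14 H2A, 12 of 17 H2B, 7 of 12 H3 and 7 of 12 H4 genes. In siIGF2BP1 replicate 2 the ratio to the other depleted libraries had a median of 0.945 and ran from 0.593 (HIST1H3J) to 1.85 (HIST1H2BM). The members highest in this library were HIST1H2BM, HIST2H2BE and HIST1H2AL (1.85, 1.54 and 1.42), and in siC replicate 3 they were at 2.73, 3.23 and 3.89 times the other controls. These genes were chosen after their values were seen. Across the 60 genes the ratios of both libraries had a Spearman's rho of 0.67, a description over genes that share libraries and in part sequence. Over all genes tested, the log2 difference of these libraries from the others of their group ran downwards with the GC content of the transcript (rho of -0.43 and -0.39), and in the other 5 libraries rho was from 0.0041 to 0.43. Among the 60 histone genes, rho with GC content was -0.077 for the ratio of siC replicate 3 and -0.27 for the ratio of siIGF2BP1 replicate 2. The part of library preparation or cell state in these ratios was not tested.

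**Figure D3:**
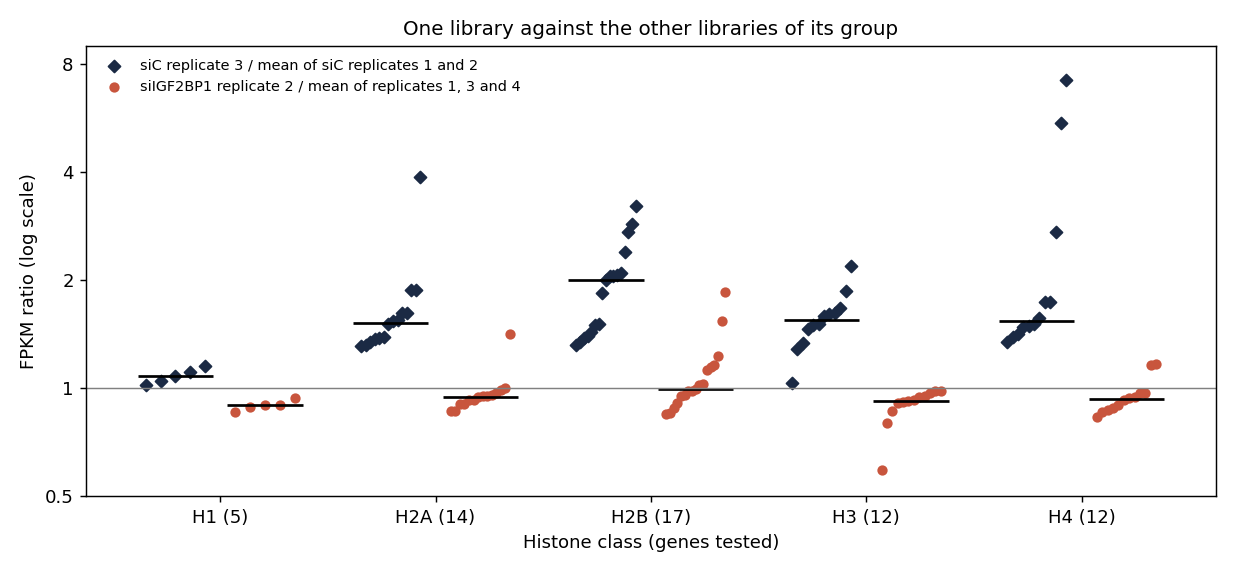
FPKM ratio (log scale) of siC replicate 3 to the mean of siC replicates 1 and 2 (dark diamonds) and of siIGF2BP1 replicate 2 to the mean of replicates 1, 3 and 4 (red points) for the 60 histone genes tested, by class; black lines are medians and the grey line marks a ratio of 1. All diamonds lie above 1, from 1.02 to 1.16 in H1 and up to 7.25 in H4, while the red points centre close to 1.

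The members were also compared by the sequence features shown above and by position, as descriptions. The medians were -0.68 for 43 tested genes with a GGCTC stem and -0.67 for 11 with a GGCCC stem, and without siC replicate 3 they were -0.47 and -0.36. For genes with and without TATAAA in the promoter window they were -0.68 and -0.76, with and without CCAAT -0.71 and -0.58, and with and without the octamer -0.70 and -0.68. Without siC replicate 3 the order for TATAAA turned, to -0.47 with it and -0.39 without, while CCAAT gave -0.47 and -0.31 and the octamer -0.47 and -0.43. The HIST1 cluster on chromosome 6 held 7 of the 8 calls among 46 tested genes (median -0.75), HIST2 on chromosome 1 held 0 among 11 (median -0.58), with 9 of 11 lower at an unadjusted p under 0.05. In the fit without siC replicate 3, 31 of 46 HIST1 genes (median -0.47) and 6 of 11 HIST2 genes (median -0.34) were lower. Genes that share over 50% of their 50-base windows with another member had 0 calls among 11 (median -0.57, 11 lower at an unadjusted p under 0.05), and genes that share none had 4 among 27 (median -0.79). These counts without siC replicate 3 were 7 of 11 (median -0.34) and 19 of 27 (median -0.49). No difference between these groups was tested.

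Of the histone genes known to be made also as polyadenylated mRNA, all 8 were tested, 2 were lower with all libraries (HIST1H2AC and HIST1H2BC) and 4 without siC replicate 3. Of the other 52 members tested, 6 and 35 were lower in these fits, against 2.28% and 6.67% of all genes. The median of the 8 was -0.68 beside -0.69 for the other 52, and -0.44 beside -0.45 without siC replicate 3. HIST1H2BD, one of the 8, was at 138, 138 and 330.4 FPKM in siC and from 83.9 to 106 FPKM in siIGF2BP1, and was called without siC replicate 3 (log2 change -0.53, limma adjusted p = 0.00873). It was not called with this library (-0.95, limma adjusted p = 0.0990).

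Divergent pairs of histone genes start within 500 bases of each other on opposite strands. GENCODE v44 gave 14 such pairs, 11 with both genes tested. HIST1H2BC and HIST1H2AC, 219 bases apart, were both called, with log2 changes of -0.92 and -0.79. HIST3H2A and HIST3H2BB, 230 bases apart, had -0.80 and -0.93, of which the second was called. Without siC replicate 3 the first of these pairs had -0.79 and -0.65, and the second -0.60 and -0.79. In that fit the gap between partners ran from 0.057 (HIST1H2BJ and HIST1H2AG) to 0.76 over the 11 pairs. The largest gaps were those of HIST1H2AK (-0.94) with HIST1H2BN (-0.18), and of HIST2H2AC (-0.54) with HIST2H2BE (-0.015). No difference within a pair was tested.

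The machinery that transcribes, processes and degrades histone mRNA was taken as a list of 17 genes. Of these, 1 was lower and 0 were higher (median -0.12), where 2.28% of all genes were lower and 1.65% higher. Without siC replicate 3, 3 of the 17 were lower, where 6.67% of all genes were lower. The gene called with all libraries was CPSF2, a subunit of the complex that cleaves histone pre-mRNA and other pre-mRNAs. CPSF2 was at 9.30, 10.1 and 10.3 FPKM in siC and at 4.87, 5.33, 5.01 and 4.96 FPKM in siIGF2BP1. It fell to 50.8% of siC (log2 change -0.96, SE 0.0672, limma adjusted p = 0.000546) and passed in 7 of 7 fits that each left out 1 library. LSM10, a protein of the U7 snRNP, stood at 77.4% of siC (log2 change -0.37, limma adjusted p = 0.0321), with all depleted libraries below all controls. The stem-loop binding protein SLBP was at 47.6, 50.2 and 61.7 FPKM in siC and at 44.4, 53.7, 46.3 and 51.6 FPKM in siIGF2BP1, so the groups overlapped (log2 change -0.11, limma adjusted p = 0.600). NPAT was at 3.73, 4.07 and 5.77 FPKM in siC and at 3.48, 4.61, 3.63 and 3.41 FPKM in siIGF2BP1, again with overlap (log2 change -0.24, limma adjusted p = 0.456). ERI1, a nuclease of histone mRNA decay, and the scaffold SYMPK differed by 0.13 and 0.12 in log2 units (limma adjusted p = 0.372 and 0.234).

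Among 12 replication-independent histone genes, most of which are also transcribed outside S phase and polyadenylated, 3 were lower and 0 higher with all libraries, where 2.28% of all genes were lower. They were H2AFV, H2AFZ and H2AFX. The count was 4 of 12 without siC replicate 3, where 6.67% of all genes were lower. The variant gene H2AFV was at 45.7, 47.2 and 59.8 FPKM in siC and at 27.1, 30.4, 27.8 and 28.7 FPKM in siIGF2BP1 (log2 change -0.82, SE 0.104, limma adjusted p = 0.00438). Its relative H2AFZ was at 145, 144 and 154 FPKM in siC and at 99.6, 104, 105 and 114 FPKM in siIGF2BP1 (log2 change -0.48, SE 0.0692, limma adjusted p = 0.00663). H2AFX, which encodes a variant that marks DNA breaks and whose transcript is known to end in a stem-loop or a poly(A) tail, was at 122, 119 and 129 FPKM in siC and at 89.2, 84.4, 92.9 and 89.4 FPKM in siIGF2BP1 (log2 change -0.47, SE 0.0624, limma adjusted p = 0.00533). For each of the 3 genes, all siC libraries lay above all siIGF2BP1 libraries. Each was called in 1 of 7 fits that left out 1 library, the one without siC replicate 3. The linker variant H1FX was at 52.2, 50.6 and 31.0 FPKM in siC and from 27.3 to 29.4 FPKM in siIGF2BP1. It was called without siC replicate 3 (log2 change -0.87, limma adjusted p = 0.000317) and with array weights (-0.84, limma adjusted p = 0.000157), but not with all libraries weighted equally (limma adjusted p = 0.0696). The array weight of siC replicate 3 was 0.0986, the lowest of the libraries, so the first pair of fits is not independent. The list as a whole had a median of -0.0057 with all libraries and -0.19 without siC replicate 3. H2AFY2, which encodes a macroH2A, and the linker H1F0 differed by 0.22 and 0.13 in log2 units (limma adjusted p = 0.143 and 0.760), and that of H1F0 was -0.15 without siC replicate 3.

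Of 19 histone chaperones and their partners 0 passed with all libraries, where 2.28% of all genes were lower and 1.65% higher. Before adjustment 2 were lower and 1 higher at p under 0.05, against 14.8% and 11% of all genes tested. The median was -0.037. Without siC replicate 3, 1 was lower, UBN1, where 6.67% of all genes were lower. Among the 19, the largest log2 changes in each direction were those of RBBP4 and SSRP1 (-0.49 and -0.18) and of CABIN1 and IPO4 (0.41 and 0.34), with limma adjusted p = 0.124, 0.157, 0.0853 and 0.200. RBBP4 was at 24.5, 25.1 and 38.1 FPKM in siC and from 18.9 to 24.0 FPKM in siIGF2BP1.

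Other genes of S phase were examined because histone mRNA is made while DNA is copied. Of 24 genes 0 passed with all libraries, where 2.28% of all genes were lower. Before adjustment 8 were lower and 0 higher at p under 0.05, against 14.8% and 11% of all genes tested. The log2 change was below 0 for 22 of 24 (median -0.17), against 7848 of the 14839 genes tested. Each siIGF2BP1 library lay below each siC library for 9 of 24, against 15.1% of all genes tested. Without siC replicate 3, 5 of 24 were lower, against 6.67% of all genes, and the median was -0.23. E2F1, the transcription factor of S phase entry, was at 30.9, 32.2 and 30.7 FPKM in siC and at 23.9, 19.6, 24.8 and 24.3 FPKM in siIGF2BP1 (log2 change -0.44, limma adjusted p = 0.0275). Its groups did not overlap. RRM2, a subunit of ribonucleotide reductase, differed by -0.33 in log2 units (limma adjusted p = 0.146). The helicase subunit MCM3 differed by 0.26 in log2 units (limma adjusted p = 0.276). In siC replicate 3, the S phase genes stood at a median of 0.91 times the other siC libraries, below 1 for 17 of 24. The median was 0.97 times over all genes tested and 1.51 times for the clustered histone genes. A smaller share of cells in S phase and less histone mRNA per cell in S phase cannot be told apart in bulk RNA, and neither was tested.

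**Figure D4:**
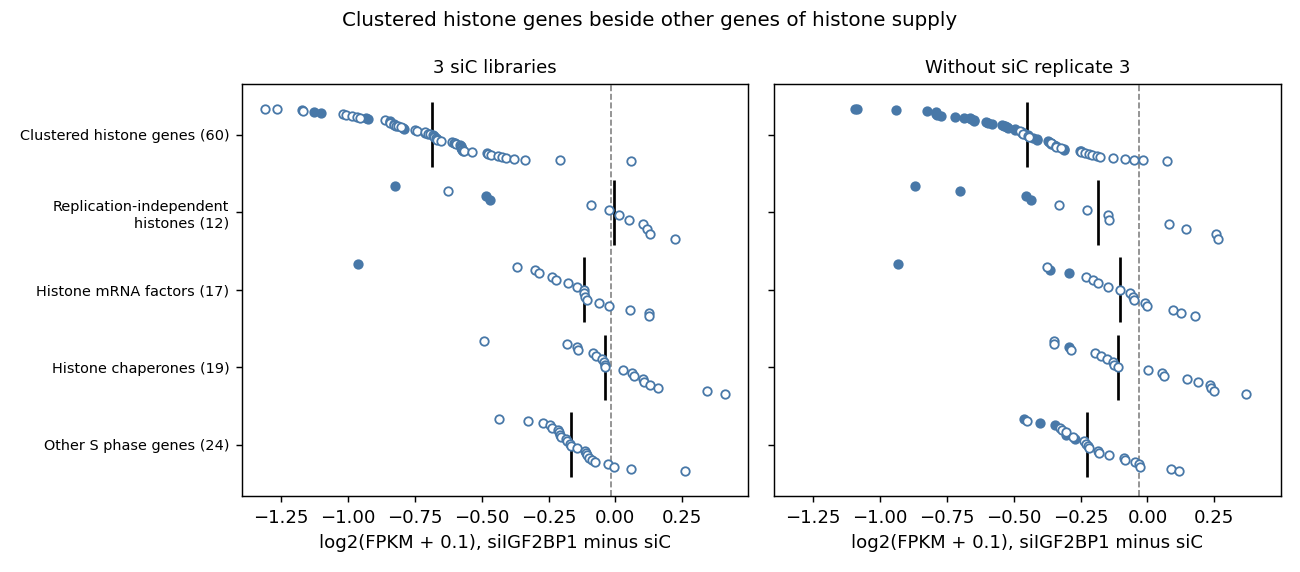
Log2 change of log2(FPKM + 0.1), siIGF2BP1 minus siC, of the 60 clustered histone genes tested and of 4 lists of other genes, with all libraries (left) and without siC replicate 3 (right); filled points have an adjusted p of at most 0.01, black lines are medians and the dashed line is the median of all genes tested. The histone genes centre at -0.69 and -0.45, and the other lists between -0.17 and -0.0057 and between -0.23 and -0.10.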

How the data were processed

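Total RNA-seq of Huh-7 cells was available for 3 siC and 4 siIGF2BP1 libraries, grouped by sample titles. The authors depleted ribosomal RNA, prepared directional libraries, clipped reads with cutadapt 1.14, aligned them to GRCh38 with HISAT2 2.1.0, counted genes with featureCounts 1.5.3 (Ensembl release 89) and tested them with edgeR 3.18.1. Strand and multi-mapping settings are not given in the sources used here. The deposited table holds FPKM per library, scaled by the authors to gene length and to TMM-adjusted library size. It also holds their fold changes, p-values and FDR, which were not used. The number of sample columns outside the labels was 0. In each library, 100% of the FPKM values under 1000 reads were whole reads within 0.1 after multiplication by gene length, which gave the depth, from 12826550 to 33212205 reads on genes. The least-covered tested member had 14 reads in a library.

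The 14839 genes that averaged 1 FPKM or more were tested on log2(FPKM + 0.1) by limma 3.58.1 (R 4.3.3), two-sided, using a mean-variance trend and no covariates. P-values were adjusted over all genes (Benjamini-Hochberg), with a threshold of 0.01. All log2 changes (siIGF2BP1 minus siC) are on the log2(FPKM + 0.1) scale, where the change of a low gene appears smaller than it is. Class sums, medians and list counts are descriptions. Members and lists were chosen with earlier results of these data known. Named members are those called, the 3 most abundant per class, the 3 lowest and 3 highest log2 changes and those also polyadenylated. Named genes of other lists are those called, the 2 largest changes in each direction, and IGF2BP1, SLBP and NPAT, of which 1 S phase gene is not reported here. Others were chosen after their values were seen. Members were matched to current symbols by Ensembl identifier (67) or RefSeq synonym (5). Stem-loops came from GENCODE v44 and promoters from RefSeq (GRCh38.p14), the genome build of the authors, though gene models may differ. No block was used, because none is described for the study's own test. Over replicates 1 to 3, same-numbered libraries did not deviate together from their group means (Pearson's r 0.0037, -0.11 and -0.15). The largest r of any pair was 0.18, for siC replicate 3 and siIGF2BP1 replicate 2. This check rests on 3 libraries per group and leaves out siIGF2BP1 replicate 4, so it cannot exclude a pairing. Alternatives were another pseudocount, other filters, other scalings, each library left out, a replicate block, removal of each library's GC trend, voom on recovered reads, array weights and another threshold.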

Additional observations from a re-analysis of the deposited data

Results flagged for a closer look

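For 55 values of the siIGF2BP1 group (named genes and class sums), the gap of the highest or lowest library to the nearest other was set against the range of the 4 libraries, and 0 exceeded Dixon's critical value for 4 samples. Chance alone gives about 2.75 of 55. The siC group, of 3 libraries, was left out of this comparison.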

How the results depend on the processing

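The median log2 change of the histone genes was below 0 under each alternative run (from -0.82 to -0.45), with 58 of 58 or at least 59 of 60 genes below 0, and 0 genes were higher. The count of lower genes depended on the setting. It was 3 without a filter, 4 with quantile normalization, 13 with protein-coding genes only, 14 with voom on recovered reads, 40 with array weights, 31 at an adjusted p of at most 0.05, and 47 with voom without siC replicate 3, an alternative chosen after seeing the data. Without 1 library it ran from 2 to 39, the highest without siC replicate 3. With the replicate block it was 0, with or without removal of the GC trend, in a design in which 0 of all genes passed. The share of all genes called lower also moved with the setting, from 2.28% with all libraries to 6.67% without siC replicate 3. For the other settings this share is not given, so these counts and those of the lists below cannot be set against it. Array weights gave siC replicate 3 a weight of 0.0986 and the other libraries from 0.641 to 2.84, so that fit nearly leaves it out. HIST1H1A, HIST1H1D and CPSF2 passed under 16 of 18 alternatives each, all but both block fits. The class median moved to -0.35 in H1 and -0.30 in H3 with quantile normalization and to -0.36 in H4 without siC replicate 3 (from -0.86 to -0.36 over the fits without 1 library). The H1 sum was 57.1% of siC without HIST1H1C, the gene of the class with the highest mean over the 7 libraries.

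The count of lower histone mRNA factors was 0 with the replicate block, with or without GC removal, 2 at the looser threshold, 3 without siC replicate 3 and 4 with array weights. For chaperones 1 was lower without siC replicate 3, and 1 was higher after GC removal and with array weights. Their median turned to 0.030 with quantile normalization, above 0 without siC replicate 1 or 2 or siIGF2BP1 replicate 1 (from -0.11 to 0.047 over the fits without 1 library), and to 0.0086 in the block fit with GC removal. For replication-independent histones the lower count was 1 without a filter and 0 with quantile normalization, with the block fits and without any 1 library other than siC replicate 3 (0 to 4 over these fits). Their median turned to 0.024 with median centring, 0.037 with quantile normalization, 0.017 after GC removal, and above 0 without siC replicate 1 or 2 or siIGF2BP1 replicate 1 or 3 (from -0.19 to 0.052 over the fits without 1 library). Lower S phase genes were 5 without siC replicate 3, 11 with array weights and 2 at the looser threshold. HIST1H3D turned to -0.015 with quantile normalization, below 0 without siC replicate 2 or siIGF2BP1 replicate 3 or 4 (from -0.062 to 0.18 over the fits without 1 library), to -0.062 with the replicate block and to -0.024 with the block and GC removal. H1F0 turned with array weights (-0.099) and without siC replicate 3 (from -0.15 to 0.28 over the fits without 1 library). The causes were not tested. Counting error limits HIST1H3D and HIST1H3J, and shared sequence limits paralogs such as HIST2H4A and HIST2H4B.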
